A study of Mus musculus with 6 samples.

Results

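The calcium/calmodulin-dependent kinase (CaM kinase) genes are the 10 rows of the deposited mouse gene table named Camk1, Camk1d, Camk1g, Camk2a, Camk2b, Camk2d, Camk2g, Camk4, Camkk1 and Camkk2, out of 45777 genes. They were picked out by symbol, and the family was chosen for description with earlier results of these data known. All 10 passed the filter on low counts and were tested, with between 368 and 33433 reads per gene and library. RNA was sequenced from cultured dorsal root ganglion (DRG) neurons, the sensory neurons beside the spinal cord, of wild-type C57BL/6 mice labelled female and 8 weeks old. Of the 6 libraries, 3 came from cultures given PBS as the negative control and 3 from cultures given oncomodulin (ONCM), a calcium-binding protein of the parvalbumin family made as a recombinant protein, at a dose of 100 ng/ml, each for 12 hours. The labels call the samples biological replicates without naming separate animals or cultures, so p-values here measure only how far these samples spread, which may be technical.

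CaM kinases are serine/threonine kinases that are switched on when calmodulin, loaded with calcium, binds next to their catalytic domain. The CaM kinase kinases, encoded by Camkk1 and Camkk2, phosphorylate CaMKI (Camk1, Camk1d, Camk1g) and CaMKIV (Camk4), which makes up a cascade. CaMKII (Camk2a, Camk2b, Camk2d, Camk2g) is built differently, as a large ring of subunits that phosphorylate each other and so stay active after calcium has fallen, and in sensory neurons it is known for its part in calcium signalling and excitability.

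The CaMKII genes are close relatives, and 3 of them are printed, without Camk2a, since reads from such genes could be given to the wrong relative. The stretch below was chosen for its likeness and is more alike than the coding sequences as a whole. It was placed around the longest coding run that any 2 of the printed genes share, 29 bases in Camk2b and Camk2g. The stretch is a 60-base window of the longest annotated coding sequence, bases 298 to 357 in each gene, in GENCODE M21 on GRCm38, the assembly also called mm10. Capitals mark the positions at which the 3 printed genes are not all alike. The genomic spans hold 1 intron each and are chr11:5992877-5997926 (minus strand) for Camk2b, chr3:126767536-126770800 (plus strand) for Camk2d and chr14:20766210-20770107 (minus strand) for Camk2g.
Camk2b: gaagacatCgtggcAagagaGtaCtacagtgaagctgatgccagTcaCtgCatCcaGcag
Camk2d: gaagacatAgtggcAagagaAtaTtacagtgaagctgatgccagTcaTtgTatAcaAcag
Camk2g: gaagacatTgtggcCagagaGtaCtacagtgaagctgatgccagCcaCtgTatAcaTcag
In this window 51 of 60 positions were identical in the 3 genes. Among the 6 pairs of CaMKII genes, the longest identical coding run was 23 to 32 bases and 76.5% to 79.8% of aligned coding bases matched. Among the 3 pairs of CaMKI genes the longest run was 17 to 27 bases, and between genes of different classes it was 10 to 15 bases. Reads longer than 32 bases within these coding sequences would therefore differ between members in at least 1 base. Neither the read length nor the handling of reads that fit several places is given in the sources used here.

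The CaM kinase genes moved in both directions. Of the 10, 3 rose, 6 fell and 1 did not pass (edgeR's quasi-likelihood test, adjusted p under 0.05), beside a background in which 48.3% of 20354 tested genes were called, 23.9% upward and 24.4% downward. Their median log2 fold change was -0.24, against 0.00 over all tested genes (median -0.0021). CPM, the read count scaled to the size of its library (TMM), did not overlap between the groups for any of the 10, where 55.6% of all tested genes had no overlap. The sizes ranged from a 3.35-fold rise of Camk1 to a 2.45-fold fall of Camk1g, both in the CaMKI class.

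**Figure D1:**
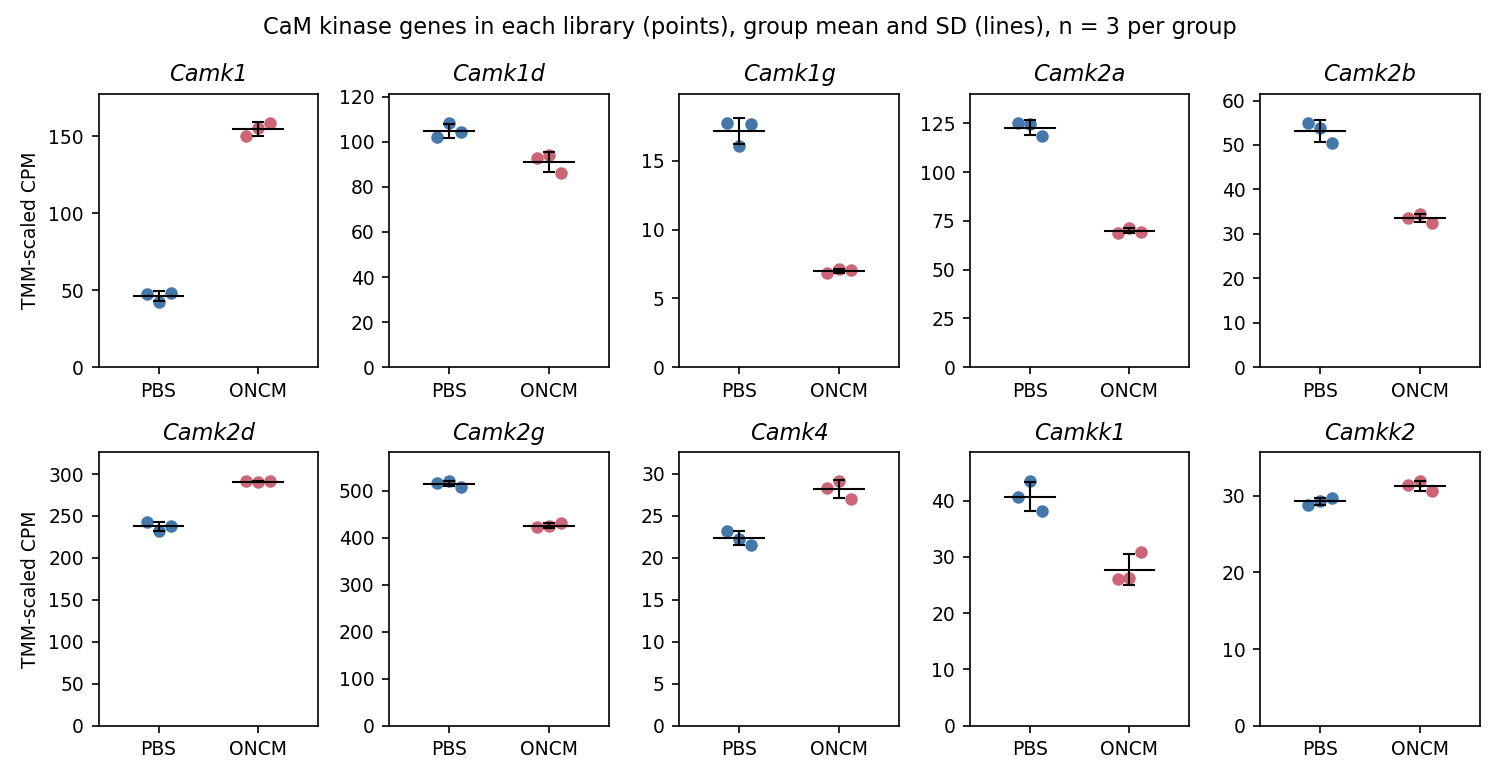
TMM-scaled CPM of the 10 CaM kinase genes in each library, with 3 PBS libraries (blue) and 3 ONCM libraries (red) as points, the group mean as a horizontal line and the SD as an error bar. Each vertical axis starts at 0 and has its own scale. Camk1 spans 42.6 to 48.4 CPM with PBS and 149.9 to 158.7 CPM with ONCM, and Camkk2 has the smallest gap between its groups relative to its level.

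Measured per transcript length, Camk2g was the most abundant member in both groups, at 355 ± 5.96 TPM with PBS and 281 ± 1.93 TPM with ONCM (TPM, a length-adjusted level, as deposited, SD, n = 3 per group). With PBS the order below it was Camk2d, Camk1, Camk2a, Camk1d, Camkk1, Camk2b, Camk1g, Camkk2 and Camk4, from 109.6 TPM for Camk2d down to 4.60 TPM for Camk4. With ONCM Camk1 stood second, at 262 ± 5.94 TPM, above Camk2d at 129 ± 1.66 TPM, and Camkk2 stood above Camk1g. Camkk1 and Camk2b were the neighbours whose TPM ranges overlapped, in both groups, and every other neighbouring pair was apart in its 3 libraries.

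Camk1 encodes CaMKI alpha, a broadly expressed kinase activated by the CaM kinase kinases (chromosome 6, 113334124 to 113343922). The PBS libraries held 47.6, 42.6 and 48.4 CPM and the ONCM libraries 149.9, 155.3 and 158.7 CPM. The groups were far apart, with a gap between them many times the range within either. The log2 fold change was 1.74 (SE 0.044, adjusted p = 6.82e-16 in edgeR), a rise larger than that of 97.5% of all tested genes. Among all tested genes, 6.18% were called with a rise of at least 2-fold. Camk1 shares 232 exonic bases with Ogg1, a DNA repair gene on the opposite strand, and the sources used here do not say whether the counting used strand, so reads from the shared bases cannot be told apart. Ogg1 itself had 390 to 468 reads per PBS library and 385 to 433 per ONCM library, against 2384 to 3079 and 8064 to 9325 for Camk1.

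Camk1d and Camk1g fell. Camk1d, for CaMKI delta (chromosome 2, 5293457 to 5714860), had 102.3, 108.4 and 104.2 CPM with PBS and 92.8, 94.1 and 86.1 CPM with ONCM. The groups did not overlap, but the change was small, at a log2 fold change of -0.21 (SE 0.039, adjusted p = 2.29e-04 in edgeR). Camk1g, for CaMKI gamma, a lipid-anchored kinase known from the outgrowth of dendrites (chromosome 1, 193346346 to 193370355), went from 17.8, 16.1 and 17.7 CPM to 6.84, 7.10 and 7.09 CPM. Its 3 ONCM libraries lay close together and far below the lowest PBS library. Its log2 fold change was -1.29 (SE 0.069, adjusted p = 2.4e-11 in edgeR), and 2.01% of all tested genes were called with a fall of at least 2-fold.

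The upstream stretches of these opposite members, Camk1 with the largest rise and Camk1g with the largest fall, are shown because the 2 genes differ in direction within 1 class. Each is the 150 bases from 250 to 101 bases before the start used in the RefSeq promoter table (GRCm38.p6), which for Camk1g lies inside the locus given above, read 5′ to 3′ on the gene's own strand, which is the minus strand for both. They lie at chr6:113344023-113344172 and chr1:193370383-193370532. Capitals mark TGACG, the core of the cAMP response element (CRE) that CREB, a target of CaMKIV, is known to bind.
Camk1: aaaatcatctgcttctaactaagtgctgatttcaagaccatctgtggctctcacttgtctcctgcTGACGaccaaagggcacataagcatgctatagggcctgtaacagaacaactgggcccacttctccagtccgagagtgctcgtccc
Camk1g: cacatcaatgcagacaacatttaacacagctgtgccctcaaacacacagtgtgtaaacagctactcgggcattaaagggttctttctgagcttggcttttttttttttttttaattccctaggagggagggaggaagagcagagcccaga
Promoter sequences were found for 7 of the 10 members. TGACG, searched on both strands, occurred in the stretch of Camk1 and of Camkk1 and in 8.4% of all 32851 such stretches, and it also lies within the full CRE. The full CRE (TGACGTCA, in 0.4% of stretches) and the AP-1 motif (TGANTCA, in 4.0%) occurred in none of the stretches of the 7 members. The STAT motif (TTCNNNGAA, in 4.4%) occurred in 1 of the pair of alternative Camk1d stretches. These matches describe letters and are not evidence of binding.

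Among the CaMKII genes, Camk2a, Camk2b and Camk2g fell and Camk2d rose. Camk2a, for the alpha subunit that is abundant in forebrain neurons (chromosome 18, 60925307 to 60988152), had PBS values of 125.2, 124.5 and 118.5 CPM and ONCM values of 68.7, 71.3 and 69.5 CPM. Every ONCM library was thus well under the PBS range, with a log2 fold change of -0.81 (SE 0.035, adjusted p = 1.17e-12 in edgeR). Camk2b, for the beta subunit, which binds actin filaments (chromosome 11, 5969629 to 6066357), had 55.0, 53.9 and 50.3 CPM with PBS and 33.6, 34.5 and 32.5 CPM with ONCM. The fall was 1.58-fold (log2 fold change -0.66, SE 0.044, edgeR adjusted p = 5.92e-10).

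Camk2g and Camk2d, the gamma and delta subunits that are found in many tissues, made up most of the CaMKII transcripts and changed less. Camk2g (chromosome 14, 20734873 to 20794157) had 517.0, 519.9 and 508.7 CPM with PBS and 421.7, 424.5 and 430.7 CPM with ONCM. Its log2 fold change of -0.28 (SE 0.026, adjusted p = 7.54e-08 in edgeR) goes with a mean that went from 515 to 426 CPM, the largest loss of any member in CPM. Camk2d (chromosome 3, 126595487 to 126846326) had 242.4, 232.4 and 238.2 CPM with PBS and 291.3, 290.6 and 291.3 CPM with ONCM. It was the single CaMKII gene that was higher in all ONCM libraries, 1.22-fold by a log2 fold change of 0.29 (SE 0.028, adjusted p = 9.03e-08 in edgeR).

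**Figure D2:**
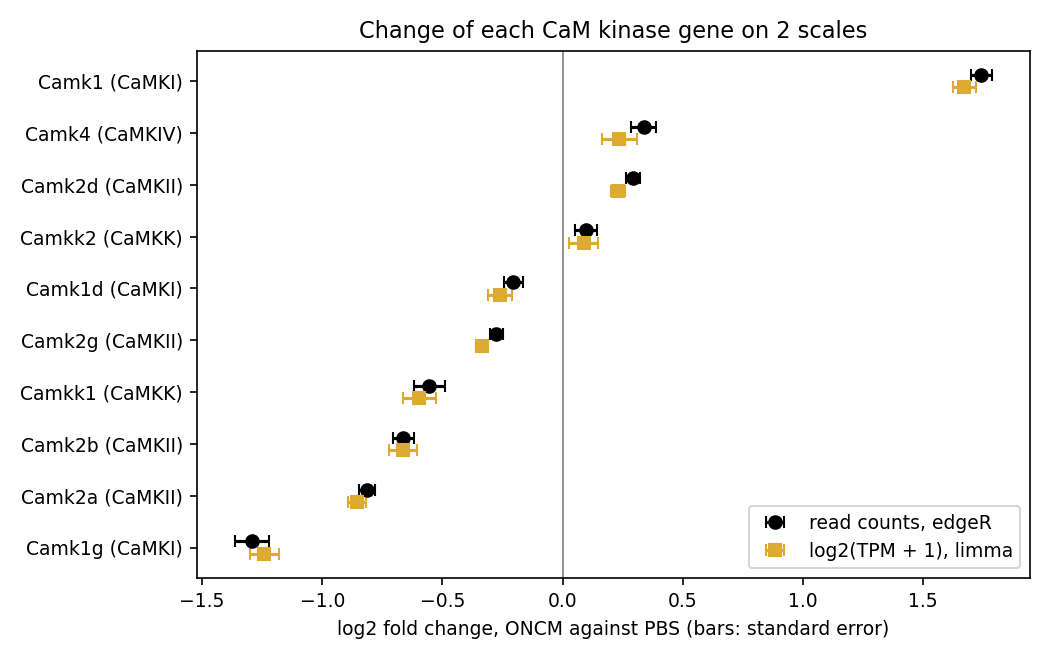
Log2 fold change, ONCM against PBS, of the 10 CaM kinase genes in order of size, from read counts with edgeR (black circles) and from log2(TPM + 1) with limma (yellow squares), with standard errors as bars. Both scales put Camk1 highest, at 1.74 and 1.67, and Camk1g lowest, at -1.29 and -1.24.

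The makeup of the CaMKII transcripts differed between the groups. Per length, Camk2d took 19.8%, 19.6% and 19.9% of the summed CaMKII TPM with PBS, and 28.3%, 27.6% and 27.8% with ONCM. Camk2a went from 11.0% ± 0.202 to 7.24% ± 0.067, Camk2b from 5.25% ± 0.254 to 3.90% ± 0.12 and Camk2g from 64.0% ± 0.489 to 60.9% ± 0.312 (SD, n = 3 per group). Each share was apart in all 6 libraries, and the exact permutation test gave p = 0.1, two-sided and also after adjustment over the 4 shares, the smallest value that 3 libraries against 3 can give. The Camk2d to Camk2a ratio of TPM was 1.76 to 1.81 with PBS and 3.81 to 3.90 with ONCM. Splice forms, which are many for these genes, cannot be told apart in gene-level values.

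The sums moved in opposite directions for the CaMKI and CaMKII classes. Summed CaMKI TPM was 139.5, 130.0 and 139.5 with PBS and 293.4, 305.2 and 300.5 with ONCM. The gain came from Camk1, as the other CaMKI genes were lower with ONCM. Summed CaMKII TPM went from 555 ± 11.8 to 461 ± 1.98 and summed CaMKK TPM from 42.1 ± 2.21 to 32.6 ± 1.79 (SD, n = 3 per group). Each of the 3 sums had p = 0.1 in the exact permutation test, two-sided and after adjustment over the 3, again the smallest possible. Camk1 alone stood at 0.211 to 0.244 times the TPM of Camk2g with PBS and at 0.914 to 0.946 times with ONCM.

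**Figure D3:**
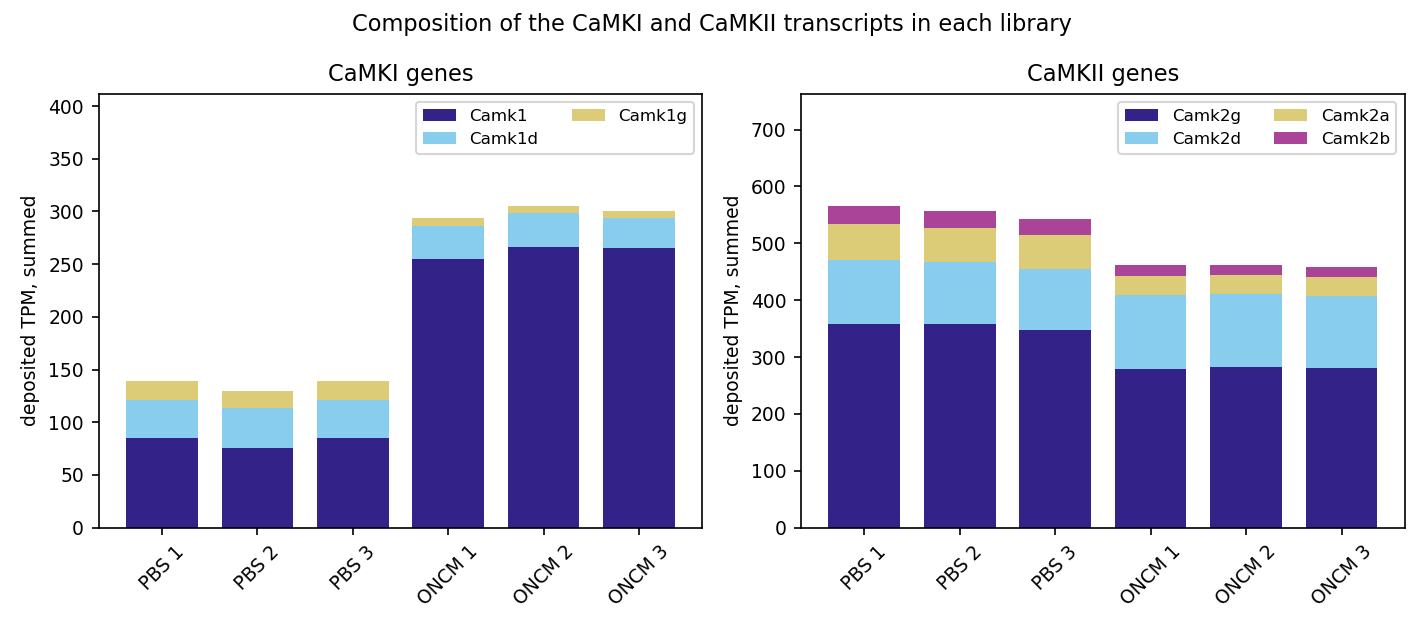
Deposited TPM of the 3 CaMKI genes (left) and the 4 CaMKII genes (right), stacked for each of the 6 libraries, on vertical axes that start at 0. The left bars grow from 130.0 to 139.5 TPM with PBS to 293.4 to 305.2 TPM with ONCM through the Camk1 segment, while on the right the Camk2d segment widens as the bars shrink.

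Camk4, for CaMKIV, a mainly nuclear kinase known for phosphorylating the transcription factor CREB (chromosome 18, 32934941 to 33195767), rose. It had 23.2, 22.2 and 21.5 CPM with PBS and 28.3, 29.1 and 27.0 CPM with ONCM, with no overlap and a log2 fold change of 0.34 (SE 0.051, adjusted p = 2.58e-05 in edgeR). CaMKIV is also a T cell kinase. The 6 T cell markers summed to 2.51 to 2.75 CPM with PBS and 2.23 to 2.33 CPM with ONCM, with 1 rising, 1 falling, 1 not passing and 3 not tested. Trac, the marker that fell, went from 1.96 to 1.05 CPM and made up most of the sum with PBS. Every other marker of the list had a higher mean with ONCM, among them Cd8a, which rose from 0.141 to 0.415 CPM. The 3 untested are Cd3e, Cd3d and Cd3g, chains of the T cell receptor complex, with 0 to 15 reads in each library, and Cd3e had 0 to 4 reads with PBS and 8 to 10 with ONCM.

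The upstream kinases differed from each other. Camkk1, for CaM kinase kinase alpha (chromosome 11, 73016043 to 73042073), had 40.6, 43.4 and 38.2 CPM with PBS and 26.1, 26.2 and 30.9 CPM with ONCM, and ONCM replicate 3 lay nearest to the PBS range. It fell by 0.56 on the log2 scale (SE 0.064, adjusted p = 2.03e-06 in edgeR). Camkk2, for CaM kinase kinase beta, which also phosphorylates the energy sensor AMPK (chromosome 5, 122718380 to 122779522), had 28.8, 29.4 and 29.7 CPM with PBS and 31.4, 31.9 and 30.6 CPM with ONCM. The log2 fold change of 0.10 did not pass (SE 0.045, adjusted p = 0.0857 in edgeR). Within each library the Camkk1 to Camkk2 ratio of TPM was 2.08 to 2.52 with PBS and 1.34 to 1.54 with ONCM. Camkk2 overlaps P2rx4, on the opposite strand, over 11360 bases but in 0 annotated exonic bases.

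The wider pathway was read from 7 lists of partner genes, of which 86 of 89 genes were tested. Of these 15 rose, 43 fell and 28 did not pass in edgeR, with a median log2 fold change of -0.13, beside 23.9% of all tested genes rising and 24.4% falling. On log2(TPM + 1) with limma the same lists gave 9 rises and 49 falls, where 17.8% of all tested genes rose and 27.7% fell, so the split depends on the scale. The CaM kinase genes themselves had 3 rises and 6 falls on both scales, where limma called 45.5% of all tested genes. DESeq2 on the counts also gave them 3 rises and 6 falls, beside 44.3% of 20353 genes called, 22.5% upward and 21.8% downward.

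In the list of calmodulin, calmodulin-binding proteins and their relatives 6 of 8 tested genes fell, 1 rose and 1 did not pass (median -0.38). Over all tested genes 48.3% were called. Gap43, a growth cone protein that binds calmodulin, was the gene that rose, from 186 ± 3.51 to 520 ± 18.5 CPM (SD, n = 3 per group). Pcp4l1, a relative of the calmodulin regulator gene Pcp4, fell from 365 to 234 CPM, Nrgn, for the calmodulin-binding protein neurogranin, fell from 1.11 to 0.528 CPM, and the calmodulin-like gene Calml4 fell from 15.4 to 9.66 CPM.

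Inhibitors and phosphatases that act on CaM kinases had 2 rises, 3 falls and 4 genes not passing of 9 (median -0.07), near the 48.3% called over all tested genes. Ppm1e, a phosphatase that removes the activating phosphate from CaM kinases, fell by 0.40 on the log2 scale, and Ppp2ca, the catalytic subunit of protein phosphatase 2A, rose by 0.26. The genes of the CaMKII inhibitor proteins, Camk2n1 and Camk2n2, named here after their values were seen, both fell, from 20.8 to 16.8 CPM and from 54.7 to 44.4 CPM. Calcineurin, the calcium-activated phosphatase, had 5 falls, 1 rise and 2 genes not passing of 8 (median -0.21), beside 48.3% of all tested genes called. Its catalytic subunit gene Ppp3ca fell from 594 ± 3.14 to 415 ± 6.80 CPM, while the calcineurin regulators went apart, Rcan1 rising from 194 ± 3.93 to 291 ± 7.58 CPM and Rcan2 falling from 348 ± 3.04 to 244 ± 6.88 CPM.

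Related kinases of the same group had 5 rises, 8 falls and 4 genes not passing of 17 (median -0.31), beside 48.3% of all tested genes called. Pnck, a CaMKI relative also called CaMKI beta and encoded on the X chromosome, fell from 9.27 ± 1.02 to 4.90 ± 0.611 CPM, Camkv, a kinase-like vesicle protein, from 1.44 to 0.792 CPM and Dapk2, a death-associated kinase, from 4.94 to 3.13 CPM. Mylk4, a myosin light chain kinase relative, rose from 0.727 to 1.40 CPM (edgeR adjusted p = 0.0165), a call lost when PBS replicate 3 (edgeR adjusted p = 0.0514) or ONCM replicate 1 (0.0688) was left out and with limma on log2(TPM + 1) (0.0541).

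The genes of AMPK, a target of Camkk2, and of the Lkb1 complex, a separate activator of AMPK, had 2 rises, 5 falls and 5 not passing of 12 (median -0.01). This count lies near the 48.3% called over all tested genes. Prkab2, an AMPK beta subunit, rose 1.43-fold from 118 ± 1.61 to 169 ± 5.13 CPM. Prkag3 was barely counted and fell from 0.448 to 0.184 CPM (edgeR adjusted p = 0.0118), a call lost when PBS replicate 1 (edgeR adjusted p = 0.0743), PBS replicate 3 (0.0517) or ONCM replicate 2 (0.0549) was left out. Among the transcriptional effectors 3 rose, 7 fell and 6 did not pass of 16 (median -0.04), beside the same 48.3%. Crem, a CREB relative that is itself induced by cAMP, rose from 11.1 ± 1.03 to 16.7 ± 1.02 CPM, and Mef2c, a transcription factor gene whose family is controlled by CaM kinases through histone deacetylases, fell 1.78-fold from 21.5 ± 0.382 to 12.1 ± 0.397 CPM.

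Substrates and anchors of CaMKII had 1 rise, 9 falls and 6 genes not passing of 16 (median -0.22), beside 48.3% of all tested genes called. Dlg4, the scaffold PSD-95, fell from 138 ± 4.50 to 85.9 ± 2.87 CPM, and the calcium channel subunit gene Cacnb2 fell from 4.56 to 2.72 CPM. Nos1, the neuronal nitric oxide synthase, fell from 80.5 ± 2.84 to 54.6 ± 2.14 CPM.

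**Figure D4:**
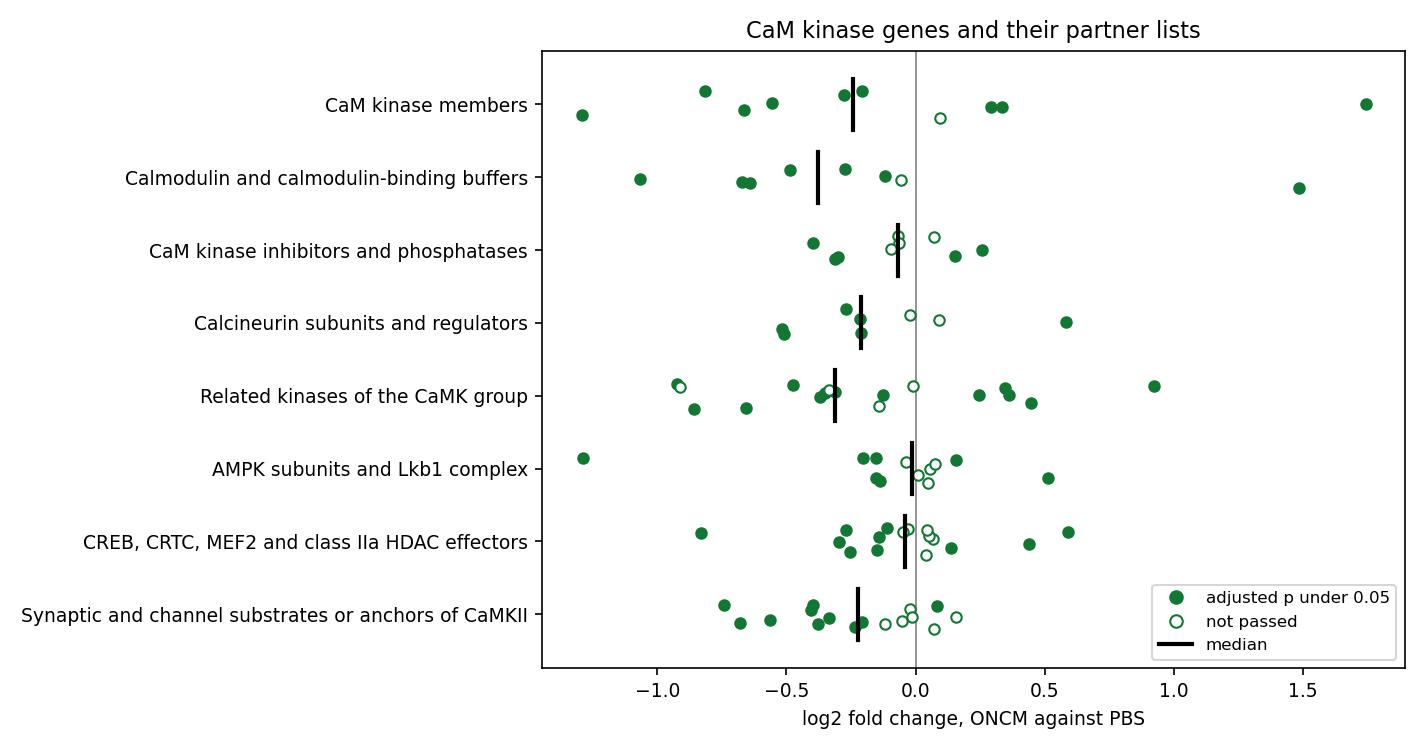
Log2 fold change, ONCM against PBS, of the 10 CaM kinase genes and of the tested genes in 7 partner lists, 1 point per gene, filled where edgeR's adjusted p was under 0.05 and open where it was not, with a black bar at each median. The calmodulin list lies mostly left of 0 apart from Gap43 at 1.49, and Camk1 at 1.74 is the point farthest to the right.

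Over the 6 libraries, the genes whose log2 CPM followed that of Camk1 most closely were Ccn3, Tnfrsf1b and Acod1, each with Pearson's r = 0.9998. For Camk1g they were Crybb1 (0.9999), Cyp2j6 (0.9998) and Cdk7 (0.9992). With 2 separated groups in 6 libraries such values are common: 664 of 14163 other genes had r above 0.99 with Camk1 and 529 with Camk1g.

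Marker sums of other cell types and sex-linked transcripts differed between the groups, and the part of these cells and transcripts in these results was not tested. Over all tested genes 48.3% were called, 23.9% upward and 24.4% downward. With both directions counted together, the calls of Schwann cell, satellite glia, endothelial and smooth muscle markers lay near or below 48.3%. They were not split evenly by direction. Schwann cell markers had 5 rises and 1 fall, the satellite glia and endothelial calls were all rises, and the smooth muscle calls were all falls. In bulk RNA, fewer cells of a type and less RNA per cell cannot be told apart. The 12 neuron markers summed to 22610 to 23460 CPM with PBS and 20440 to 21660 CPM with ONCM, 3 rising and 7 falling. All 10 macrophage markers rose, their sum going from 37.6 to 41.2 CPM to 116.9 to 121.3 CPM, which is 3.01-fold beside the 3.35-fold of Camk1. The single macrophage markers ranged from 1.6-fold (Mrc1) to 8.5-fold (C1qc), so the fold of the sum depends on the markers listed. The rise of Camk1 was 108 CPM, and that of the macrophage sum, which also depends on the markers listed, was 79.6 CPM. Of 8 fibroblast markers 6 rose (sum 640 to 665 CPM with PBS and 1162 to 1208 CPM with ONCM), and of 10 Schwann cell markers 5 rose and 1 fell (3645 to 3717 and 3794 to 3945 CPM). Of 8 satellite glia markers 3 rose (2254 to 2316 and 2464 to 2589 CPM), and of 7 endothelial markers 4 rose (144 to 150 and 167 to 175 CPM). Of 6 smooth muscle and pericyte markers 2 fell (125 to 129 and 89.1 to 91.0 CPM), and of 5 red blood cell markers 4 fell (82.9 to 89.9 and 58.1 to 61.6 CPM). No marker was at 0 in all 6 libraries. Every sample is labelled female, yet the X-linked transcript Xist measured 0.53 ± 0.053 CPM in PBS libraries and 478 ± 55.8 CPM in ONCM libraries, and the Y-linked Ddx3y at 60.5 ± 2.17 and 16.1 ± 0.933 CPM. Source cells, their sex and treatment therefore cannot be told apart for any CaM kinase gene.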

How the data were processed

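Gene-level values from 6 libraries were used as the authors deposited them in 1 table: raw read counts for the tests, TPM for levels between genes and as an alternative scale, and FPKM as an alternative for sums and shares. The genome build is mm10, per the submitters' processing notes, while no aligner, counter, annotation release or strand setting is given in the sources used here. Library totals ran from 53770820 to 64477014 counts, so 3 counts correspond to 0.0465 to 0.0558 CPM, which covers counting error only. Columns were matched by the sample codes in the labels, and coordinates come from RefSeq on GRCm38.p6 by Entrez number (45679 of 45777 genes).

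Counts were filtered with filterByExpr, scaled by TMM and tested with edgeR 4.0.16 in R 4.3.3 (robust quasi-likelihood F-test, no covariate, Benjamini-Hochberg over 20354 genes). The SE is the log2 fold change divided by the square root of F. Alternatives were DESeq2 1.42.0, limma 3.58.1 on log2(TPM + 1) or log2(TPM + 0.1), other scalings and filters, a replicate block and leaving out libraries. In counts simulated for this comparison over 20021 genes, the edgeR test recovered 56% of 1.25-fold and 98% of 2-fold changes, with 6.63% of calls false. The simulation changed 50 genes at each fold size, all with a mean of at least 1 CPM. That is far fewer than were called in the data, so these rates may not hold there. Replicates within a group differed by 2.76 to 7.09 times sampling noise (chi-square per degree of freedom). Members and lists were chosen with earlier results of these data known. Named genes are all members, and from each partner list the called genes with a log2 fold change of at least 0.5 in size or, with none, the 2 smallest p-values. Genes like a member in profile were the 3 with the highest Pearson correlation among those with a mean of at least 1 CPM and an informative symbol (not Gm, Rik or LOC).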

Additional observations from a re-analysis of the deposited data

How the results depend on the processing

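The calls of 9 CaM kinase genes (all but Camkk2) kept their direction and stayed past the threshold in all 15 alternatives, with log2 fold changes of 1.67 to 1.77 for Camk1, -1.35 to -1.24 for Camk1g, -0.87 to -0.80 for Camk2a and 0.24 to 0.36 for Camk4. Camkk2 ranged from 0.08 to 0.11 and passed in 1 alternative, with genes under a mean of 1 CPM left out (0.11, edgeR adjusted p = 0.0452), and had adjusted p-values up to 0.277 elsewhere. Partner genes that rose numbered 15 in the counts, 11 to 17 in the other fits on counts, and 9 on both log2(TPM + 1) and log2(TPM + 0.1). Over the alternatives, the named partner genes lost their call in 7 checks and kept call and direction in 290. The losses given above for Mylk4 and Prkag3 are among these 7. The median log2 fold change over all tested genes was -0.0021 in the counts, -0.043 on log2(TPM + 1) and -0.060 on log2(TPM + 0.1). The cause of the difference was not tested. On log2(TPM + 1) 39.2% of all calls were rises, against 49.5% on counts. No pairing of the libraries by label replicate number was seen: same-numbered libraries had correlations of -0.00651, -0.0128 and 0.0401 in their deviations. Not every library correlated best with its own number. With 3 libraries a group, a weak pairing could go unseen. With the replicate block 4733 genes rose and 4864 fell, against 4869 and 4960 without it, and the member calls were 3 and 6 as before. CaMKII shares and class sums kept their direction with CPM or FPKM in place of TPM and without any 1 library. With 3 libraries a group, the exact tests of these shares and sums cannot go below p = 0.1.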

Other observations

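Whether the CaM kinase genes together were higher or lower with ONCM depended on the scale. Summed CPM of the 10 genes was 1175 to 1200 with PBS and 1151 to 1165 with ONCM, while summed TPM was 727 to 751 with PBS and 791 to 806 with ONCM. Camk1, with the shortest longest coding sequence of the 10 (1125 bases), made up 11.1% of the summed TPM with PBS and 32.8% with ONCM.

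Camkk2 in PBS replicate 1 stood apart in TPM and not in counts. Its TPM values were 11.6, 13.1 and 13.2 with PBS and 13.2, 13.6 and 13.7 with ONCM, while its CPM in PBS replicate 1 was 28.8, beside 29.4 and 29.7.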
